A study of Homo sapiens with 22 samples.

Results

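The mitochondrial ribosomal protein (MRP) genes are the nuclear genes whose symbols begin with MRPL, for the large subunit, or MRPS, for the small subunit, followed by a number and at most a letter A to C. The pattern was applied to the symbols of the deposited gene tables, and no measured value entered the choice. It matched 78 of 58870 rows in the siRNA tables and 78 of 57820 rows in the actinomycin D tables, where the rows carried 76 symbols because MRPL30 and MRPS17 each had a second identifier. The actinomycin D tables held no row under the symbols MRPL57 and MRPL58. The 2 sets of rows shared 74 identifiers, so they are not the same genes throughout. Of the 78 genes in the siRNA tables, 51 encode large-subunit proteins, 26 encode small-subunit proteins and 1, MRPS36, was kept apart because its product is now known as a subunit of a mitochondrial dehydrogenase. MRPS18A and MRPS30 were counted with the large subunit, where structures place their products. All 78 rows passed the filter on low counts in each experiment.

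The study used human colorectal cancer cell lines in separate experiments, one of which depleted Staufen1 (STAU1), a double-stranded RNA-binding protein with known roles in mRNA localisation, translation and decay. In that experiment LS180 cells received siRNA against STAU1 (siSTAU1) or control siRNA (siCTRL) for 72 h and a further 72 h, with 2 libraries of polyA RNA per group. In the other, LS180 and HCT116 cells, without siRNA in their labels, were exposed to actinomycin D, an inhibitor of transcription, at 5 µg/ml for 0, 2 or 4 h, with 3 libraries of total RNA per group. Each line is a single established line, and whether replicates are independent cultures is not in the labels, so each p-value covers the spread among these libraries only, which may be technical.

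Libraries held 23730000 to 26659000 counts in the siRNA experiment and 47842000 to 61418000 in the actinomycin D experiment, and MRP genes took 0.627% to 0.656% and 0.456% to 0.535% of them. STAU1 itself measured 144 and 141 CPM (counts scaled to library size) with control siRNA against 9.70 and 9.17 CPM after depletion. All 8 epithelial markers examined were at 1 CPM or more in the siRNA libraries, and 7 of 8 were in each actinomycin D group, with VIL1 under 0.1 CPM in HCT116. The 5 goblet-like secretory markers summed to 2598 to 2664 CPM in siCTRL and 4563 to 4751 CPM in siSTAU1, and each was under 0.1 CPM in HCT116; their part in the results below was not tested. In the siRNA libraries, fibroblast markers summed to 3.40 to 6.09 CPM, immune markers to 18.8 to 20.5 CPM and endothelial markers to at most 0.401 CPM. In the actinomycin D experiment, the LS180 4 h libraries 2 and 3 stood apart, with normalisation factors of 0.864 and 0.812 against 0.974 to 1.10 in the other 16 libraries. The median change of MRP genes, the genes lower in both lines and the line differences at 4 h are given also without them. This leaves 1 LS180 library at 4 h, assumed to vary like the other groups.

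Mitochondrial ribosomes translate the few mRNAs of the mitochondrial genome, all for subunits of the oxidative phosphorylation complexes. Their RNAs come from mitochondrial DNA, but each of their proteins is encoded in the nucleus, made on cytoplasmic ribosomes and imported. Some of these proteins descend from bacterial ribosomal proteins and were classed as having a bacterial counterpart (46 of the 77 classified genes in the siRNA tables). The others (31) were classed as found only in mitochondrial ribosomes, without a bacterial counterpart. MRPS18A and MRPS18B were put in the second class although they are related to MRPS18C, which is in the first.

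Promoter entries in the RefSeq table (GRCh38.p14), from 250 bases before to 50 bases after the start, were found for 69 MRP symbols. Motifs of factors known for nuclear genes of mitochondrial proteins were searched on both strands. The ETS-type letters CCGGAAG lay in 43.48% of the MRP promoters, against 16.53% of 15842 promoters of protein-coding genes and 12.16% of all 27305. The YY1-type letters ATGGCGG lay in 34.78% against 9.15% and 6.66%, and include a start codon. The NRF1-type letters, GCGCA and then GCGC after any 1 base, lay in 13.04% against 9.66% and 6.98%. A match is a run of letters and not a measured site. The stretches below, chosen after the values were seen, lie upstream of the RefSeq starts of members described later. They are written 5′ to 3′ on the gene's strand, with matched motifs in capitals. Those of MRPL36, MRPL34, MRPL18 and MRPS22 lie inside the gene spans of GENCODE, the annotation used for gene positions. For these genes the stretch is upstream of the RefSeq start only. The first stretch separates the starts of MRPL46 and MRPS11, both members, which are transcribed away from each other. Their changes after actinomycin D are given below, and the difference between them was not tested. The other stretches belong to members that rose or fell in a comparison.
MRPL46, chr15:88467420-88467452, minus strand: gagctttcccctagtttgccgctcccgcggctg
MRPL36, chr5:1799896-1799987, minus strand: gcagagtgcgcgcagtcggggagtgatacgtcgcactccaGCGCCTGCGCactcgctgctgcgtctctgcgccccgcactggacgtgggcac
MRPL17, chr11:6683402-6683461, minus strand: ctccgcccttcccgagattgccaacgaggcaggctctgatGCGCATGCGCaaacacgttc
MRPL34, chr19:17305597-17305652, plus strand: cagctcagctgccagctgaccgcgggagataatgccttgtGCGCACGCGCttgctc
MRPL18, chr6:159790401-159790465, plus strand: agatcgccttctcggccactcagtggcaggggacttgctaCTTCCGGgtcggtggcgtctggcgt
MRPS31, chr13:40771191-40771262, minus strand: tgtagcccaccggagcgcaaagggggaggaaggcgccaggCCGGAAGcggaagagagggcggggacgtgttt
MRPS22, chr3:139343867-139343955, plus strand: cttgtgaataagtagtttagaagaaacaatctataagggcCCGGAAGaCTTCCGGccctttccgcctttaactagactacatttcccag
The MRPL36, MRPL17 and MRPL34 stretches carry NRF1-type letters, and those of MRPL18, MRPS31 and MRPS22 carry ETS-type letters, in MRPS22 as an adjacent match on each strand.

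Levels per length were compared in TPM, the deposited values corrected for transcript length and library size, which were set side by side only within an experiment. In the siRNA libraries the mean TPM of MRP genes ranged from 16.2 for MRPS31 to 344 for MRPL12, with a median of 99.96. MRPL12, whose product forms the flexible stalk that recruits translation factors, stood at 352 ± 12.7 TPM in siCTRL (SD, n = 2) and MRPS34 at 320 ± 3.9. MRPL51, MRPL20 and MRPL3 followed, with overall means of 296, 266 and 238 TPM. At the other end lay MRPS14, MRPS17, MRPL50 and MRPL10, at 24.5, 31.4, 32.9 and 43.3 TPM, above MRPS31. In the actinomycin D libraries the median was 23.9 TPM, MRPL51 was highest at 89.8 TPM and MRPS34 followed at 78.5 TPM, while MRPL30 was lowest among the first identifiers at 2.55 TPM. The second identifiers of MRPL30 and MRPS17, read-through transcripts that share exons with them, stood at 0.152 and 0.0839 TPM.

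After depletion of STAU1, MRP genes were called in both directions, at shares near those of all genes tested. By edgeR's quasi-likelihood test at an adjusted p under 0.05, 20 of 78 rose and 19 fell, where 23% of the 14073 genes tested rose and 23% fell (46.1% called in all). The median log2 fold change was 0.04 over MRP genes and 0.00 over all genes tested. The 79 cytoplasmic ribosomal protein genes tested held 60 that rose and 0 that fell, with a median of 0.20, and 25 of the 60 nuclear genes of respiratory complexes I to IV rose and 9 fell. With counts scaled to the cytoplasmic ribosomal protein genes, which moved the median of all genes to -0.20, the split was 4 higher and 36 lower. Over all 14073 genes that scaling gave 900 higher and 5518 lower, against 3242 and 3240 in the main test. Leaving out siCTRL library 1 gave 10 MRP genes called higher, and leaving out either siCTRL library 2 or siSTAU1 library 2 gave 13. Over all genes these leave-outs gave 1968, 2108 and 2710 higher, in that order.

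MRPS6, a small-subunit protein with a bacterial counterpart, had the largest rise. Its levels were 75.2 and 74.0 CPM with siCTRL and 114 and 122 CPM with siSTAU1, so the groups did not overlap. The log2 fold change was 0.66 ± 0.04 (SE; adjusted p = 5.89e-07, edgeR). Its exons overlap those of SLC5A3 on the same strand, whose own log2 fold change was 0.19, and counting could divide reads between them. MRPL34 stood at 63.9 and 64.6 CPM in siCTRL and at 83.1 and 91.1 CPM in siSTAU1, a log2 fold change of 0.44. MRPL18 went from 81.3 and 78.1 CPM to 105 and 109 CPM, and MRPL50 from 69.2 and 71.4 CPM to 92.5 and 92.7 CPM. In each of these genes both siSTAU1 libraries lay above both controls. MRPL54, MRPL27, MRPL41 and MRPL57 completed the 8 largest rises, with log2 fold changes of 0.40, 0.36, 0.35 and 0.34; these 4 lost their calls with counts scaled to cytoplasmic ribosomal protein genes.

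MRPL30 had the largest fall, from 90.9 and 95.1 CPM in siCTRL to 64.1 and 63.1 CPM in siSTAU1 (log2 fold change -0.55 ± 0.05, SE, adjusted p = 3.06e-06, edgeR). It shares same-strand exons with a read-through locus, so its value is uncertain. MRPS2, which in bacterial ribosomes has a counterpart in the small subunit's body near the mRNA exit, stood at 147 and 153 CPM in siCTRL and at 107 and 110 CPM in siSTAU1, a log2 fold change of -0.47. MRPS31 stood at 18.3 and 19.0 CPM against 13.4 and 12.99 CPM. All these genes fell without overlap between groups. MRPS9, MRPL2, MRPS30, MRPS27 and MRPS5 followed, with log2 fold changes of -0.39, -0.36, -0.35, -0.31 and -0.30. MRPL2 is a core protein at the catalytic centre, and MRPS27 belongs to the pentatricopeptide repeat family. The calls of all 8 largest falls, and of MRPS6, MRPL34, MRPL18 and MRPL50, were kept under each of 12 alternatives.

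Genes of particular functional sites showed no shared direction. The stalk genes MRPL12 and MRPL10 had log2 fold changes of 0.05 and 0.01 and were not called. MRPL45, the protein that anchors the ribosome at the inner membrane, fell by 0.20 on the log2 scale (adjusted p = 0.00196, edgeR), whereas MRPL23, at the exit tunnel, had 0.09 and was not called. MRPS12, at the decoding centre, rose by 0.14 with an adjusted p of 0.0322 (edgeR), but lost its call in 7 of 12 alternatives and turned to -0.06, not called, with counts scaled to cytoplasmic ribosomal protein genes. Among the 3 related MRPS18 genes, MRPS18B fell by 0.29 and MRPS18A by 0.16, while MRPS18C had 0.05 and was not called. Among large-subunit genes 16 rose and 11 fell, and among small-subunit genes 4 rose and 8 fell, where 23% of all genes tested were called in each direction; the subunits were not tested against each other. The 10 small-subunit genes classed as without a bacterial counterpart held 0 that rose and 5 that fell, with a median of -0.14. MRPS18B, related to MRPS18C of the other class, was 1 of these 5. Those 5 had coding sequences of 774 to 1242 bases, and the 5 not called had 318 to 654 bases. Class and coding length therefore cannot be told apart among these 10 genes.

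The direction of the siSTAU1 change followed the length of the coding sequence. Across the 78 genes Spearman's rho between the log2 fold change and coding length was -0.64, and across 12148 of the 14073 genes tested it was -0.37. It was -0.62 within the large subunit (51 genes), -0.71 within the small subunit (26), -0.48 over 60 respiratory genes and 0.04 over 79 cytoplasmic ribosomal protein genes. Genes are not independent replicates and share the same 4 libraries. Among the 26 genes with the shortest coding sequences (195 to 477 bases) 14 rose and 0 fell. The middle 26 (483 to 750 bases) held 5 that rose and 4 that fell, and the longest 26 (753 to 1317 bases) 1 that rose, MRPL1, and 15 that fell. Other genes in those length ranges rose in 49.2%, 44% and 30.7% of cases and fell in 7.02%, 10.7% and 16.5%. These ranges were drawn after the values had been seen. Each siSTAU1 library, set against the mean of both siCTRL libraries, gave the trend, with rho of -0.63 and -0.64. These values share that reference, so they are not independent of each other. The siCTRL libraries against each other gave 0.00. Total transcript length gave -0.37 and 3′ untranslated length -0.02. Exon number also ran with the calls, with a median of 3 in genes called higher, 7 in genes called lower and 5 in those not called. Coding length and exon number were not tested apart. With effective length as an offset in the model, 11 MRP genes were called higher and 16 lower, where 2189 and 2232 of all 14073 genes were.

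**Figure D1:**
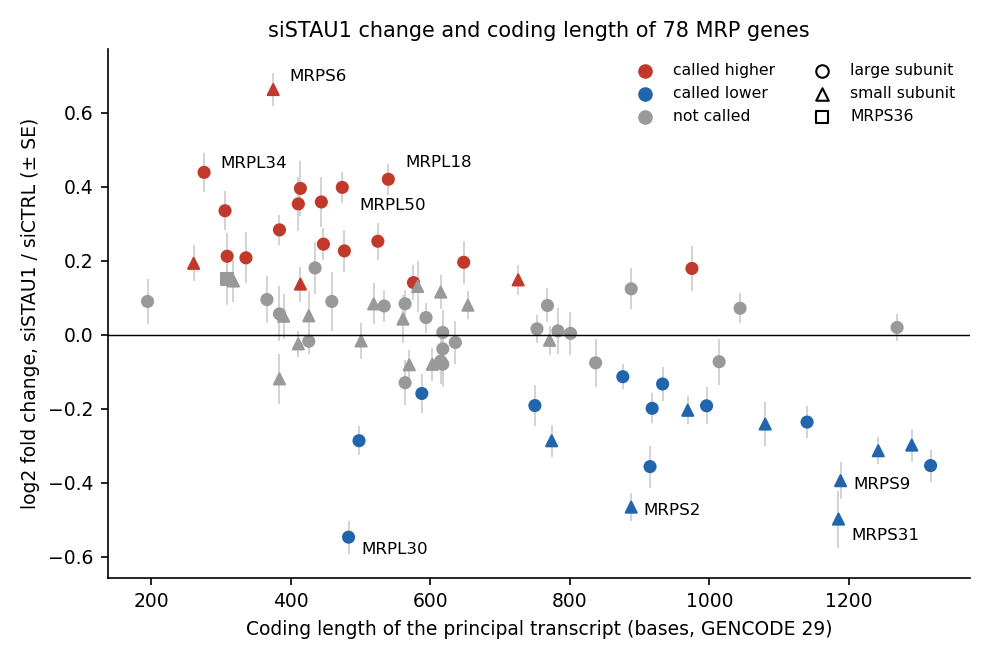
Log2 fold change of each of the 78 MRP genes after siSTAU1 (y axis, bars are SE) against the coding length of its principal transcript in bases (x axis); colours mark calls at an adjusted p under 0.05 and shapes the subunit. Genes called higher lie at coding lengths of 261 to 975 bases and genes called lower at 483 to 1317 bases.

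Lists of other genes of mitochondrial gene expression were counted after siSTAU1, where 23% of all genes were called in each direction. Of 25 mitoribosome assembly genes 2 rose and 11 fell, of 16 translation factors 2 rose and 7 fell, and of 20 mitochondrial aminoacyl-tRNA enzymes, which load amino acids on tRNAs, 2 rose and 12 fell. The rRNA methyltransferase gene MRM1 fell from 14.9 to 8.91 mean CPM, a log2 fold change of -0.74. LRPPRC, which stabilises mitochondrial mRNAs, fell from 221 to 153 mean CPM (-0.53). TWNK, the helicase of mitochondrial DNA, fell from 76.4 to 51.3 mean CPM (-0.58). Among 9 regulators of nuclear mitochondrial genes 0 rose and 6 fell, including YY1 (-0.20), PPRC1 (-0.33) and MYC (-0.46). Of the 5 proteins of the mitochondrial ribosome whose symbols the MRP pattern does not match, 3 rose, among them CHCHD1 (0.30), and 2 fell, PTCD3 by 0.48 and DAP3 by 0.21 on the log2 scale.

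Actinomycin D blocks new transcription, so the later libraries describe RNA that was already present. Since CPM are scaled relative to the other genes of a library, a rise in CPM is relative and is not a gain in RNA. After 2 h in LS180, 18 of 78 MRP rows were called higher and 11 lower, where 13.5% and 23.9% of 17256 genes were (37.4% in all). At 2 h in HCT116, 15 were higher and 4 lower, where 13.8% and 17.1% of genes were (31% in all). These counts moved with the scaling, as did those of all genes. With RLE size factors LS180 gave 48 higher and 5 lower (all genes 4863 and 3364). Scaling to cytoplasmic ribosomal protein genes gave 1 higher and 21 lower in LS180 (all genes 54 and 5627) and 0 and 16 in HCT116 (33 and 3984). Without LS180 2 h library 2, LS180 gave 42 higher and 3 lower (all genes 4309 and 3007). Without LS180 2 h library 1 or LS180 0 h library 2 it gave 5 and 7 higher (all genes 1579 and 1478). Without HCT116 0 h library 1 or 3 HCT116 gave 5 higher (all genes 2083 and 1594). Without HCT116 2 h library 2 or 3 it gave 1 (all genes 1052 and 1032). The 8 largest of the 11 falls in LS180 were those of MRPL50, MRPL15, MRPL36, MRPL10, MRPL44, MRPS17, MRPL2 and MRPL17, with log2 fold changes from -0.40 for MRPL50 to -0.22 for MRPL17. In HCT116 the 4 falls were MRPL44 (-0.32), MRPL17 (-0.23), MRPL36 (-0.21) and MRPS12 (-0.19). The largest rises at 2 h were those of MRPL52 in LS180 (0.26) and MRPS21 in HCT116 (0.29).

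After 4 h, 42 MRP rows were called higher and 17 lower in LS180, where 26.6% of genes were higher and 31.1% lower (57.7% in all). In HCT116, 44 were higher and 10 lower, where 26.2% and 23.7% of genes were (49.9% in all). The median log2 fold change was 0.18 in LS180 and 0.19 in HCT116, against 0.00 and 0.02 over all genes. Cytoplasmic ribosomal protein genes rose in 79 of 79 cases in each line, with medians of 0.58 and 0.41, and 58 of 63 respiratory genes rose in each, with medians of 0.51 and 0.45. Scaled to cytoplasmic ribosomal protein genes, 0 MRP rows were higher and 59 lower in LS180, and 0 and 42 in HCT116. Of all 17256 genes, 126 were then higher and 10730 lower in LS180, and 111 and 7352 in HCT116. With total library size alone the split of MRP rows was 15 and 24 in LS180 and 18 and 16 in HCT116. Over all genes it was 1893 and 6460 in LS180 and 2274 and 4409 in HCT116. The scalings moved the median of all genes from -0.54 to 0.12 in LS180. Relative to that median, the MRP median lay 0.12 to 0.30 higher in LS180 and 0.11 to 0.20 higher in HCT116 over all settings tried. A change of scaling moves all genes nearly alike, so it could hardly alter this distance (0.16 to 0.19 over the scalings in LS180). The distance therefore does not test the effect of scaling. Without LS180 4 h libraries 2 and 3, the LS180 median was 0.215 over MRP rows and 0.095 over all genes. Without HCT116 4 h library 2 or 3 HCT116 gave 21 and 18 MRP rows higher, where 3432 and 3396 of all genes were.

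**Figure D2:**
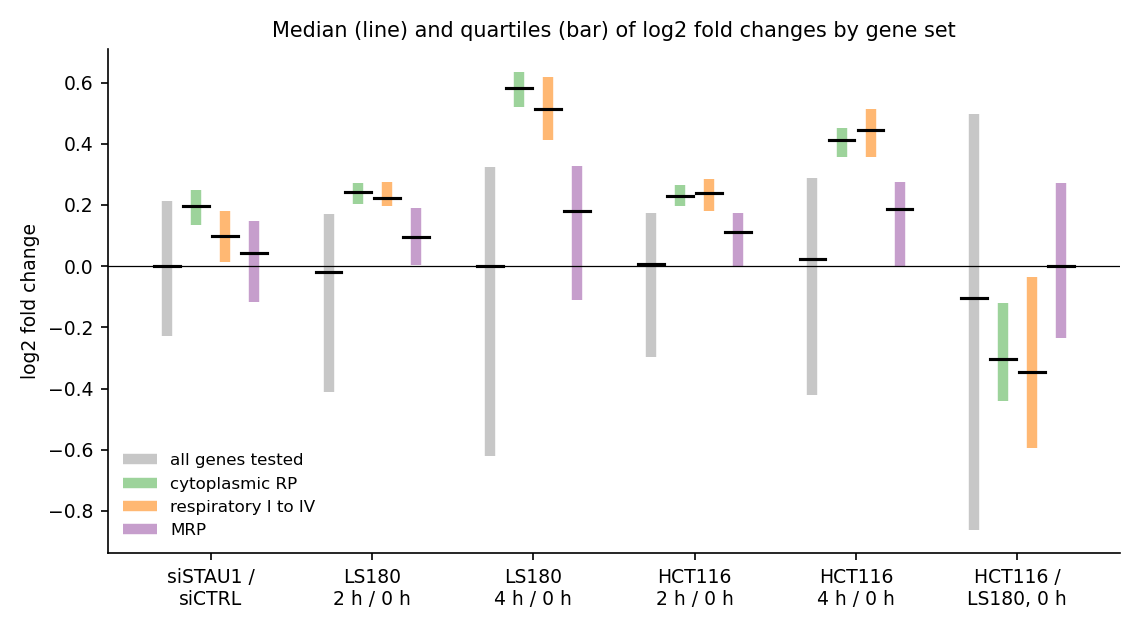
Median (black line) and quartiles (coloured bar) of log2 fold changes (y axis) in 6 comparisons (x axis) for all genes tested, cytoplasmic ribosomal protein genes, respiratory genes and MRP genes. After 4 h of actinomycin D the MRP median of 0.18 in LS180 and 0.19 in HCT116 lay above that of all genes and below those of the other sets, under the scaling of the main test.

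At 4 h, 9 symbols were called lower in both lines: MRPL36, MRPL44, MRPS17, MRPL15, MRPL46, MRPS12, MRPL14, MRPL17 and MRPS30. They were 52.9% of the genes called lower in LS180 and 90% of those in HCT116; over all genes tested the corresponding shares were 67% and 88%. Another 37 rows were higher in both lines, 88.1% of those called higher in LS180 and 84.1% of those in HCT116. Over all genes tested the shares were 77% and 78.1% (3534 genes). Opposite calls were held by 0 of the 78 rows and by 72 of the 17256 genes. The log2 fold changes of the lines, which share no library, had Pearson's r of 0.86 and Spearman's rho of 0.90 over the 78 rows, against 0.69 and 0.71 over 17256 genes; rows are not independent replicates. MRPL36, MRPL44, MRPS17, MRPL15, MRPL46 and MRPS12 kept their calls in both lines under each alternative run. Without LS180 4 h libraries 2 and 3, 8 of the 9 were lower in both lines and 36 rows were higher in both, and MRPS30 had -0.06 in LS180 (adjusted p = 0.468, edgeR). The values in LS180 then ran from -0.67 for MRPL36 to -0.24 for MRPL46 among the other 8, and r and rho were 0.87 and 0.91.

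MRPL36 lies at chr5:1798386-1801366 (GRCh38, minus strand, 2 exons) and encodes a small protein of the large subunit with a bacterial counterpart. In LS180 it stood at 36.0, 36.1 and 36.0 CPM at 0 h, at 28.9, 28.97 and 27.7 CPM at 2 h and at 20.6, 19.6 and 20.7 CPM at 4 h. In HCT116 it stood at 40.2, 39.4 and 37.8 CPM, then 34.6, 33.0 and 34.1 CPM, then 27.0, 28.7 and 26.3 CPM. The times did not overlap in either line. At 4 h it was 1.78-fold lower in LS180 and 1.43-fold lower in HCT116, with adjusted p-values of 5.49e-11 and 6.49e-08 (edgeR).

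MRPL44, at chr2:223957404-223967714 (plus strand), encodes a large-subunit protein with a ribonuclease III-like fold. In HCT116 it went from 61.6, 59.9 and 58.5 CPM at 0 h through 46.5, 48.2 and 49.5 CPM at 2 h to 34.9, 36.8 and 36.3 CPM at 4 h. In LS180 it went from 64.5, 63.6 and 65.5 CPM through 55.9, 53.3 and 52.4 CPM to 43.5, 44.1 and 44.2 CPM. It had the largest fall of the family in HCT116 among members averaging 5 CPM or more, 1.67-fold, and was 1.47-fold lower in LS180. The test of the difference between lines gave an adjusted p of 0.0599 (edgeR).

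MRPL46 and MRPS11 have starts 33 bases of intervening sequence apart on chromosome 15. MRPL46, a large-subunit protein with no bacterial counterpart, went in LS180 from 24.9, 22.2 and 23.2 CPM at 0 h to 18.01, 15.5 and 14.5 CPM at 4 h. MRPS11, a small-subunit protein with a bacterial counterpart, stood at 29.9, 32.3 and 30.3 CPM at 0 h and at 31.5, 36.1 and 38.3 CPM at 4 h. The MRPL46 groups did not overlap and the MRPS11 groups did. The log2 fold changes were -0.55 for MRPL46 and 0.20 for MRPS11 in LS180, both called; without LS180 4 h libraries 2 and 3 they were -0.24, called, and 0.17, not called. They were -0.34, called, and 0.12, not called, in HCT116. The difference between the genes was not tested, and the MRPS11 values turned to -0.36 and -0.28 with counts scaled to cytoplasmic ribosomal protein genes. MRPS11 was singled out after its values were seen.

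The other genes lower in both lines were spread over both subunits. MRPS17 had log2 fold changes at 4 h of -0.68 in LS180 and -0.48 in HCT116, and MRPS12, of the decoding centre, -0.50 and -0.38. MRPL15 had -0.68 and -0.25, MRPL14 -0.50 and -0.18, MRPL17 -0.38 and -0.24, and MRPS30 -0.25 and -0.29. The 3 libraries of each of these genes at 4 h lay below the 3 at 0 h in both lines. MRPS17 shares same-strand exons with NIPSNAP2 and MRPS12 overlaps SARS2 on the opposite strand; how the authors' counting used strand is not given in the sources used here.

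**Figure D3:**
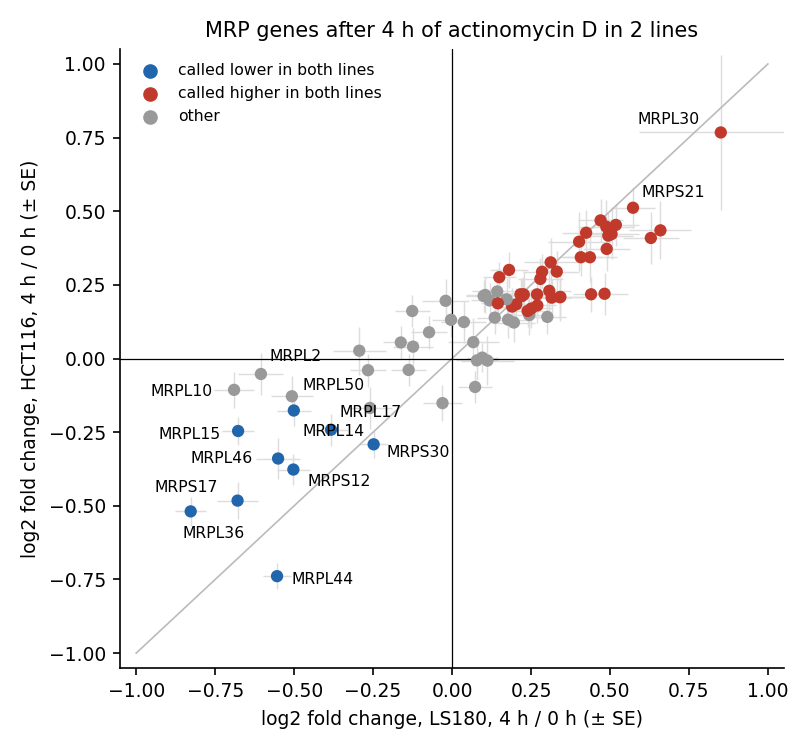
Log2 fold change after 4 h of actinomycin D in HCT116 (y axis) against LS180 (x axis) for the 76 first-identifier MRP genes, with SE bars and the line of equal change. The 9 genes called lower in both lines lie in the lower left, with MRPL36 farthest left at -0.83 and MRPL44 lowest at -0.74.

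Among the rises at 4 h, MRPS21, a small-subunit protein, went in LS180 from 58.0, 57.9 and 60.6 CPM to 75.5, 89.7 and 97.4 CPM. In HCT116 it went from 55.7, 57.3 and 55.2 CPM to 75.1, 80.2 and 84.4 CPM. The log2 fold changes were 0.57 and 0.51, and in both lines every 4 h library lay above every 0 h library. MRPL42, MRPL33 and MRPL11 rose by 0.52, 0.66 and 0.51 in LS180 and by 0.45, 0.44 and 0.42 in HCT116. Scaled to cytoplasmic ribosomal protein genes, MRPL42 and MRPL11 had -0.04 and -0.06 in LS180. MRPL30, at 4.87 to 10.2 CPM at 0 h in LS180, had the largest log2 fold change among members averaging 5 CPM or more, 0.85 ± 0.26 (SE), on low and scattered counts, and lost its call without LS180 4 h libraries 2 and 3. MRPL3, near the catalytic centre, rose by 0.29 in each line, MRPL23 by 0.40 in each, and MRPL45 by 0.22 in each, and these signs too turned with that scaling. MRPL12 had 0.07 and 0.06 and was not called.

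**Figure D4:**
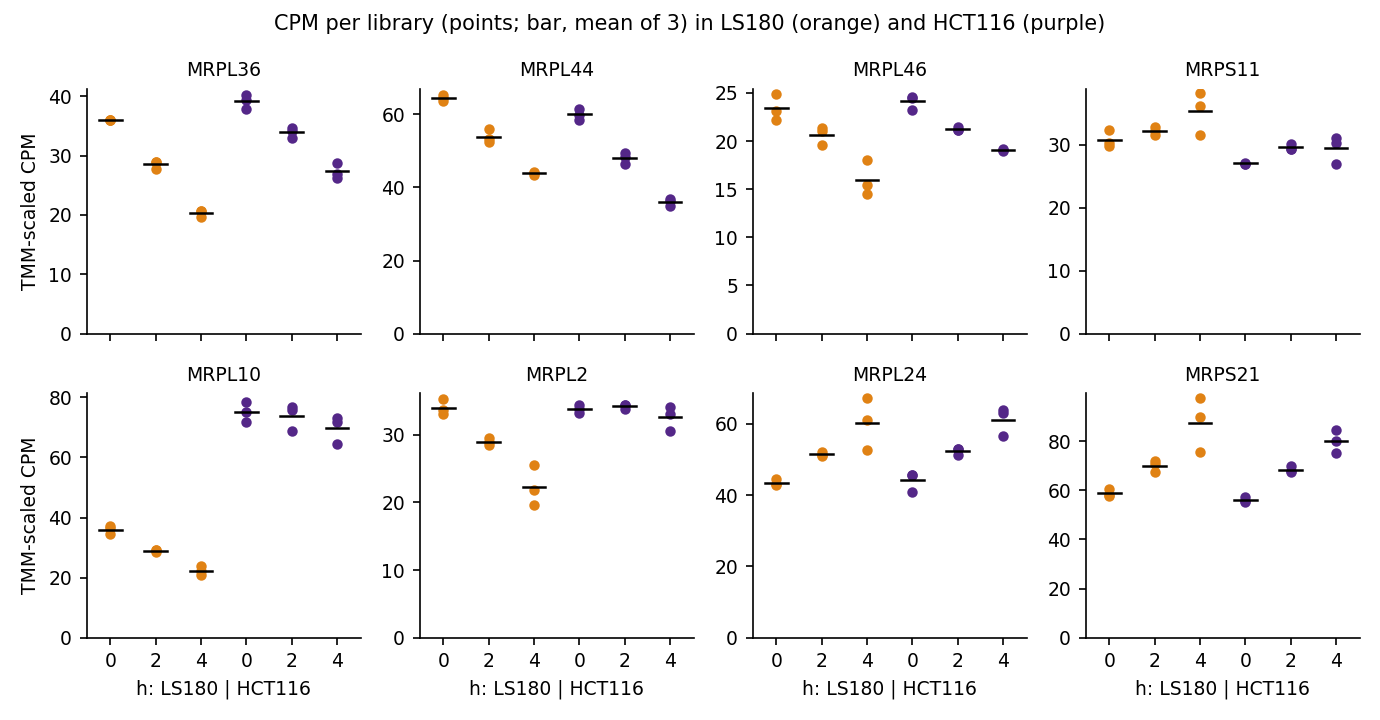
CPM (y axis, from 0) of 8 MRP genes in each of the 18 actinomycin D libraries by hours of treatment (x axis) in LS180 (orange) and HCT116 (purple); points are libraries and bars are means of 3. MRPL36, MRPL44 and MRPL46 stepped down in both lines, MRPL10 and MRPL2 stepped down in LS180, and MRPL24 and MRPS21 stepped up in both.

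Over the 18 libraries, log2 CPM of MRPL51, MRPL23, MRPL40, MRPL24 and MRPL19 followed the mean of the other members most closely, with Pearson's r of 0.94, 0.89, 0.88, 0.87 and 0.85. MRPL44, MRPL46 and MRPS17 ran against it, with -0.67, -0.70 and -0.72. These libraries share 2 lines and 3 times, and the values are a description. Coding length showed no trend like that after siSTAU1: rho with the 4 h change was -0.13 in LS180 and -0.07 in HCT116, and the number of ATTTA pentamers in the 3′ untranslated region gave 0.15 and 0.10.

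Some other genes of mitochondrial gene expression had larger falls than the MRP genes, though not all of their lists fell. The helicase gene DDX28, of ribosome assembly, went from a mean of 19.5 to 3.61 CPM in 4 h in LS180, a log2 fold change of -2.43, and had -2.46 in HCT116. The aminoacyl-tRNA enzyme genes MARS2 and PARS2 had -2.75 and -3.94 in LS180 and -3.03 and -3.52 in HCT116. Of the 20 genes of their list, however, 11 were higher and 5 lower in LS180, with a median of 0.21. Of 16 translation factors, 12 were higher and 3 lower in LS180, with a median of 0.27. Over all genes, 26.6% were higher and 31.1% lower. Of 25 assembly genes, 8 were higher and 15 lower in LS180 (8 and 9 without LS180 4 h libraries 2 and 3), and 8 and 9 in HCT116. Of 9 regulators, 1 was higher and 7 lower in LS180 and 1 and 6 in HCT116, among them MYC (-5.84 and -5.04) and NRF1 (-2.68 and -2.29). Among the 7 mitoribosome proteins under other symbols, 4 were higher and 0 lower in each line, with DAP3 at 0.41 and 0.43.

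Before treatment, 26 MRP rows were higher and 25 lower in HCT116 than in LS180, where 33.7% and 42.6% of the 17256 genes were (76.3% in all). The median log2 fold change was 0.00 over MRP genes, -0.10 over all genes, -0.30 over cytoplasmic ribosomal protein genes and -0.35 over respiratory genes. Scaled to cytoplasmic ribosomal protein genes the split was 46 higher and 12 lower, where 7306 and 5368 of all genes were. Each line is represented by 3 libraries of 1 line, so the comparison is between these cultures. In bulk RNA, fewer cells of a type and less RNA per cell cannot be told apart.

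MRPL10, of the stalk, was the member most raised in HCT116. It stood at 37.1, 36.5 and 34.5 CPM in LS180 and at 71.8, 74.98 and 78.5 CPM in HCT116, 2.09-fold higher without overlap (adjusted p = 1.60e-11, edgeR). MRPS23 stood at 61.0, 65.3 and 66.0 CPM against 120, 115.9 and 111 CPM. MRPL1, MRPL9, MRPS22, MRPL27, MRPL45 and MRPL12 followed, with log2 fold changes of 0.82, 0.75, 0.62, 0.61, 0.59 and 0.57. Both stalk genes were thus among the 8 largest rises.

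MRPL50, of the large subunit, was the member most lowered. It stood at 92.3, 84.2 and 94.8 CPM in LS180 and at 43.1, 39.4 and 38.2 CPM in HCT116, 2.25-fold lower. MRPS25 stood at 54.8, 52.4 and 50.7 CPM against 25.4, 23.9 and 24.9 CPM, 2.13-fold lower. MRPL16 stood at 129, 129 and 131 CPM against 61.7, 63.8 and 58.1 CPM, 2.12-fold lower. The lines did not overlap in any of these genes. MRPS35, MRPL48, MRPS16, MRPL28 and MRPL17 had log2 fold changes of -0.81, -0.77, -0.73, -0.72 and -0.50. The calls of all 16 of these largest differences were kept under each alternative run.

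**Figure D5:**
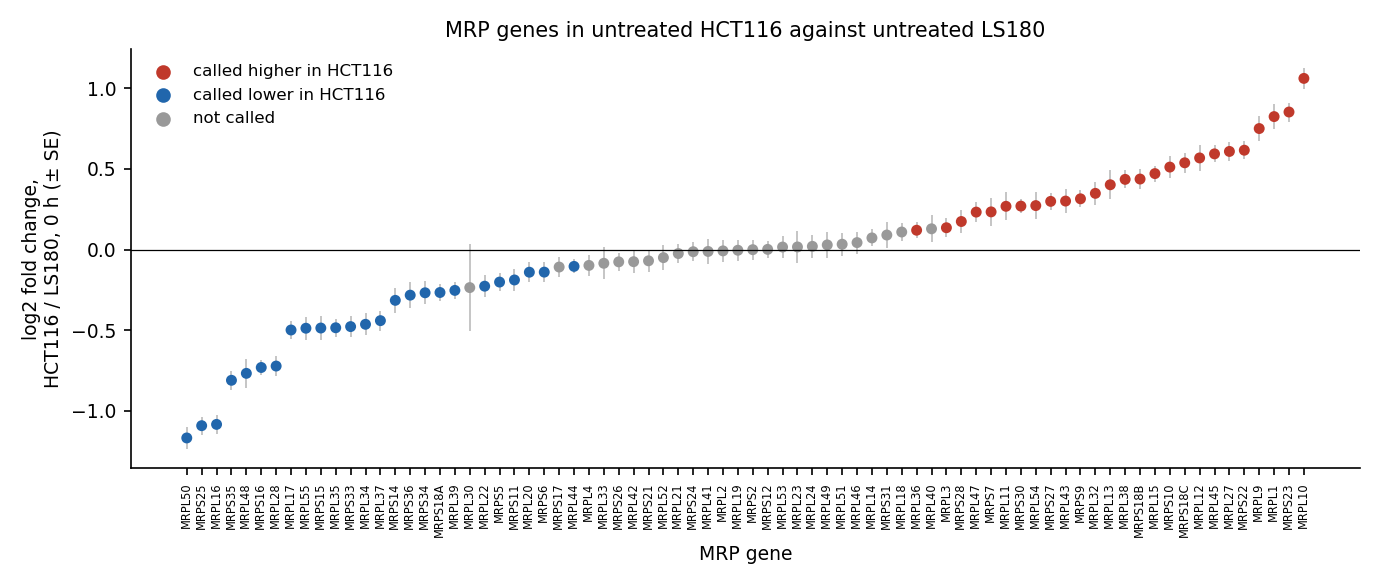
Log2 fold change of untreated HCT116 over untreated LS180 (y axis, bars are SE) for the 76 first-identifier MRP genes in rank order (x axis), coloured by call. The values run from -1.17 for MRPL50 to 1.06 for MRPL10, with calls at both ends.

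The difference between the lines in the 4 h change was called for 7 MRP genes, all with a more positive change in HCT116, where 12.3% of genes were called in that direction and 1.33% in the other (13.7% in all). At 2 h, of 78 rows the difference was called for MRPL15 alone, where 5.24% of genes were called higher and 0.394% lower (5.64% in all). MRPL10 went from 37.1, 36.5 and 34.5 CPM to 23.9, 20.9 and 22.1 CPM in LS180. In HCT116 it went from 71.8, 74.98 and 78.5 CPM to 64.5, 71.7 and 73.1 CPM. The LS180 groups did not overlap and the HCT116 groups did, and the difference of changes was 0.58 ± 0.09 (SE, adjusted p = 0.000138, edgeR). MRPL2 went from 33.6, 35.3 and 33.0 CPM to 25.4, 19.6 and 21.8 CPM in LS180 and from 33.8, 33.1 and 34.3 CPM to 30.5, 34.1 and 33.1 CPM in HCT116, a difference of 0.55. These counts depended on single libraries, as did those over all genes. Without LS180 4 h library 1 there were 4 calls higher and 37 lower, where 1919 and 2536 of all genes were. Without HCT116 4 h library 1, 2 or 3 there were 3, 2 and 2 higher and 5, 8 and 6 lower. Over all genes these leave-outs gave 1143, 1051 and 1079 higher and 972, 673 and 830 lower. The median over all genes moved from 0.06 to -0.09 without LS180 4 h library 1. It moved to -0.1, -0.105 and -0.102 without HCT116 4 h library 1, 2 or 3. Without LS180 4 h libraries 2 and 3 it was -0.07, and -0.06 over MRP rows. None of the 7 calls at 4 h, nor the 1 call at 2 h, was kept under every alternative run.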

How the data were processed

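Human colorectal cancer cell lines were profiled by RNA-seq in 4 siRNA libraries and 18 actinomycin D libraries, in 8 groups. The authors deposited RSEM gene tables with expected counts and TPM; per the submitters' processing notes, cutadapt, STAR 2.7 and RSEM 1.3.1 were used, with builds hg38 (siRNA) and hg19 (actinomycin D). No source used here names the annotation release or the strand setting. Deposited expected counts were rounded to whole numbers. Each experiment was fitted separately with edgeR 4.0.16 (TMM, filterByExpr, quasi-likelihood test, R 4.3.3), with 2 and 12 residual degrees of freedom, and p-values were adjusted by Benjamini-Hochberg over all 14073 or 17256 genes; calls used 0.05. CPM are scaled by TMM. Precision is limited by 2 or 3 libraries per group. Tests were checked on simulated data: for 1.5-fold changes, 83.6% of 67 changed genes were recovered in the siSTAU1 design (13588 genes), 86.6% for LS180 at 4 h and 53.7% for the line difference at 4 h (14037 genes each). Of the calls, 5.15%, 2.55% and 5.75% were false. The simulation gave all genes 1 spread and changed few genes, equally up and down, unlike the data. It therefore did not test the scaling. Changes under 1.5-fold, as in all MRP genes but MRPS6 after siSTAU1, were not simulated.

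Named genes were, in each comparison, up to 8 called members with the largest rises and 8 with the largest falls among those averaging 5 CPM or more, plus fixed genes for functional sites; also the 5 highest and lowest TPM, the 5 closest to the family mean and up to 4 genes per list. The members and lists were chosen with earlier results of these data known. Gene positions and lengths come from GENCODE 29 (GRCh38), matched by stable identifier, and promoters from RefSeq GRCh38.p14; identifiers for 97.4% of the actinomycin D rows and 100% of the siRNA rows matched. Alternatives were DESeq2 1.42.0, RLE factors, other filters, length offset, other scalings, replicate block, only the compared groups and leaving out libraries. One gene that the rule for lists would name is not reported here.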

Additional observations from a re-analysis of the deposited data

Results flagged for a closer look

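The change after actinomycin D differed between the lines, by the test of the difference itself (edgeR's quasi-likelihood test, adjusted over 17256 genes), for 7 members at 4 h and 1 at 2 h, where 12.3% and 5.24% of all genes were called in that direction; a positive value means a more positive log2 fold change in HCT116. At 2 h MRPL15 had 0.32 (adjusted p = 0.00747). At 4 h MRPL10 had 0.58, MRPL2 0.55, MRPL15 0.43, MRPL50 0.38, MRPL14 0.32, MRPL36 0.31 and MRPS5 0.29, with adjusted p-values from 0.000138 for MRPL10 to 0.0182 for MRPS5. Of these, MRPL10, MRPL2, MRPL15, MRPL50, MRPL14 and MRPL36 were called lower in LS180 at 4 h. The LS180 4 h libraries 2 and 3, which stand apart in normalisation, enter each 4 h value. Without them 1 of the 7 kept its call, MRPL50, at 0.36 (adjusted p = 0.0413), while MRPL10 had 0.32, MRPL15 0.26, MRPL14 0.25, MRPL2 0.20, MRPL36 0.12 and MRPS5 -0.01, with adjusted p-values from 0.0972 for MRPL14 to 1.0 for MRPS5. MRPL44 then gained a call, at -0.34 (adjusted p = 0.0196). Of the 7 calls at 4 h and the 1 at 2 h, 0 were kept under every alternative run.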

How the results depend on the processing

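Counts of MRP genes called (higher, then lower) are given where they moved by over 1.5 times. Counts over all genes tested, whose number differs between settings, follow in the same order. After siSTAU1, the effective length offset gave 11 higher, and scaling to cytoplasmic ribosomal protein genes 4 and 36. Over all genes these gave 2189 higher, and 900 and 5518. In LS180 at 2 h, RLE factors gave 48 and 5, DESeq2 51 and 5, no filter 47 and 5, a minimum of 1 CPM throughout a group 50 and 5, total library size 11 higher, the compared groups alone 35 higher, and ribosomal protein scaling 1 and 21. Over all genes these gave 4863 and 3364, 4927 and 3284, 4921 and 3347, 4943 and 3145, 1095 higher, 3893 higher, and 54 and 5627. In LS180 at 4 h, no filter and the 1 CPM filter each gave 11 lower, total library size 15 higher, and ribosomal protein scaling 0 and 59. Over all genes these gave 4698 and 4223 lower, 1893 higher, and 126 and 10730. In HCT116 at 2 h, no filter gave 7 higher, the 1 CPM filter 7 and 7, total library size 3 higher, ribosomal protein scaling 0 and 16, and leaving out the HCT116 libraries numbered 1 gave 9 higher. Over all genes these gave 1462 higher, 1685 and 2983, 685 higher, 33 and 3984, and 1998 higher. In HCT116 at 4 h, no filter gave 29 higher, the compared groups alone 25 higher, total library size 18 and 16, and ribosomal protein scaling 0 and 42. Over all genes these gave 3850 higher, 3444 higher, 2274 and 4409, and 111 and 7352. Between untreated lines, no filter gave 14 lower (37 higher), the 1 CPM filter 40 and 14, and ribosomal protein scaling 46 and 12. Over all genes these gave 6978 lower (7633 higher), 5976 and 5120, and 7306 and 5368. For the line difference at 2 h, RLE, no filter, the 1 CPM filter, total library size and ribosomal protein scaling each gave 0 higher, and leaving out the HCT116 libraries numbered 1 gave 2. Over all genes these gave 576, 616, 522, 435, 343 and 1049 higher. At 4 h it gave 3 and 4 with RLE, 5 lower with DESeq2, 2 and 7 with no filter, 3 and 16 with the 1 CPM filter, and 1 and 1 without LS180 4 h libraries 2 and 3, where MRPS5 had -0.0105. Leaving out 1 library at a time, counts ran from 10 to 26 higher after siSTAU1, from 5 to 42 higher and 3 to 10 lower in LS180 at 2 h, from 1 to 13 higher in HCT116 at 2 h, from 18 to 43 higher in HCT116 at 4 h, and from 0 to 2 higher at 2 h and from 2 to 9 higher and 0 to 37 lower at 4 h for the line difference. Over all genes they ran from 1968 to 3102, from 1478 to 4309 and 3007 to 3762, from 1032 to 2083, and from 3396 to 4492. For the line difference they ran from 365 to 935 at 2 h, and from 1051 to 2101 and 136 to 2536 at 4 h. The cause of these shifts was not tested.

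With ribosomal protein scaling the log2 fold change turned to -0.063 for MRPS12, -0.19 for MRPL10, -0.15 for MRPS18C, -0.11 for MRPL23 and -0.15 for MRPL12 after siSTAU1. In LS180 at 2 h it turned to -0.0018 for MRPS28, -0.012 for MRPL1 and -0.027 for MRPL22. In LS180 at 4 h it turned to -0.039 for MRPL42, -0.062 for MRPL11, -0.069 for MRPL52, -0.077 for MRPS15, -0.27 for MRPL3, -0.34 for MRPL45, -0.16 for MRPL23, -0.49 for MRPL12 and -0.36 for MRPS11. In HCT116 it turned at 2 h to -0.00062 for MRPL18, -0.0103 for MRPL1, -0.014 for MRPL9 and -0.017 for MRPL19, and at 4 h to -0.11 for MRPL3, -0.18 for MRPL45, -0.0075 for MRPL23, -0.35 for MRPL12 and -0.28 for MRPS11. With total library size MRPL10 had -0.027 after siSTAU1, MRPL12 -0.14 and MRPS11 -0.013 in LS180 at 4 h, and MRPL12 -0.064 in HCT116 at 4 h. With the length offset MRPL10 had -0.0057 and MRPS18C -0.17 after siSTAU1. Leaving out 1 library at a time gave MRPL10 -0.048 to 0.066, MRPS18C -0.011 to 0.106, MRPL23 -0.047 to 0.210 and MRPL12 -0.0076 to 0.094 after siSTAU1, and MRPL12 -0.041 to 0.124 in HCT116 at 4 h. Of 1925 values of single genes under alternatives, 40 changed sign, 191 lost a call, 16 gained one and 1678 kept direction and side of the threshold.

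Same-numbered siRNA libraries deviated with a correlation of -0.06, and actinomycin D groups with -0.09 to 0.33. The correlation was over 0.1 in 7 of 9 pairs within HCT116 (0.0849 to 0.325), in 0 of 9 within LS180 and in 1 of 27 across lines. All 9 pairs within HCT116 were positive, and HCT116 libraries numbered 1 had -0.225 to -0.126 with those numbered 2 or 3 at other times. Since not every pair was over 0.1, the numbers were not taken as pairs, so the main test leaves out any pairing within HCT116. With a replicate block, 26 MRP genes were higher and 19 lower after siSTAU1, 24 and 12 in LS180 at 2 h, 42 and 17 at 4 h, 19 and 5 in HCT116 at 2 h, 44 and 10 at 4 h, 26 and 25 between lines, and 1 and 0, then 7 and 0, for the line difference. Over all genes these were 3560 and 3504, 2535 and 4219, 4724 and 5426, 2629 and 3058, 4693 and 4185, 5862 and 7409, 959 and 79, and 2226 and 251. The block held 1 effect per number for both lines, so it does not test pairing within HCT116 alone. The leave-out of LS180 4 h libraries 2 and 3 and of HCT116 libraries numbered 1 was chosen after seeing the data.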

Other observations

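Of 80 MRP identifiers in the annotation, 22.5% had a protein-coding gene starting within 1000 bases in the opposite direction, against 7.38% of 19951 protein-coding genes. MRPL36 lies beside NDUFS6, a respiratory complex I gene: at 4 h of actinomycin D, MRPL36 had a log2 fold change of -0.83 in LS180 and -0.52 in HCT116, and NDUFS6 0.36 and 0.37. MRPL47 and NDUFB5, another complex I gene, had -0.19 and 0.19 after siSTAU1, both called. MRPL50 and ZNF189 had -0.51 and -1.18 in LS180 at 4 h, and MRPL27 and EME1 -0.27 and -1.15. MRPL18 and TCP1, a chaperonin gene, had 0.27 and 0.26. The differences within these pairs were not tested, and the pairs were chosen after their values were seen.

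MRPS31 shares sequence with pseudogenes listed in the tables, which took 9.87% of the counts summed over gene and pseudogenes in the siRNA tables and 14.5% in the actinomycin D tables, so its values are uncertain.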
